A study of Ovis aries with 6 samples.

Results

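B lineage and plasma cells of the Hu sheep ovary were the subject of this account. They were found as single-cell barcodes with at least 1000 UMI (unique molecular identifiers, 1 per captured RNA molecule) and at most 10% of UMI in genes whose name starts with KEF53_, in which at least 3 of the 6 genes CD79A, CD79B, MS4A1, VPREB3, MZB1 and JCHAIN were detected and PECAM1, KDR, CD3E and CD3G together gave at most 2 UMI. The files held 52290 barcodes, 38465 of them were within the limits on UMI and KEF53_ genes, and 124 of these (0.322%) were members. The members were thus chosen by the measured counts of these 10 genes, whose levels are given as a description and are not tested.

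The study compared ovaries of ewes that differ in litter size. HLS was the high-reproduction group, with a litter size of at least 3, and LLS was the low-reproduction group, with a litter size under 2. Each group had 3 ewes, all sampled in oestrus, with 1 ovary and 1 droplet 3′ library per ewe. The libraries held 43329214 to 75549906 UMI each. The labels give no genotype, and the ewe is the replicate throughout.

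B cells carry a membrane antibody that signals through the paired chains CD79A and CD79B, and MS4A1 (CD20) is a membrane protein of the mature cell. When a B cell becomes a plasma cell it loses MS4A1 and turns to secreting antibody. Its endoplasmic reticulum then expands under XBP1 and PRDM1, with MZB1 as a chaperone of antibody assembly and JCHAIN as the joining chain of IgA and IgM. A clone of B cells uses 1 rearranged set of variable (V) segments, joined in the transcript to a constant (C) region, so these segments show what antibody a cell makes.

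The members were spread unevenly over the ewes. HLS replicates 1 to 3 held 3, 12 and 15 members, which was 0.0531%, 0.162% and 0.257% of their barcodes within both limits. LLS replicates 1 to 3 held 16, 73 and 5 members, which was 0.242%, 1.35% and 0.0662%. LLS replicate 2 therefore held 58.9% of all members, and the other 5 ewes held 51. Its exact 95% binomial interval, 1.06% to 1.69%, lay above that of every other ewe, the highest of which ended at 0.424%. These intervals cover counting error only. Set against members, T cells and macrophages together, the share was 2.08%, 6.19% and 3.60% in HLS and 5.19%, 19.2% and 2.54% in LLS, so LLS replicate 2 stood apart on that base too. No member shared its barcode with another library, and 13 to 28 barcodes were shared by each of the 15 pairs of libraries.

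**Figure D1:**
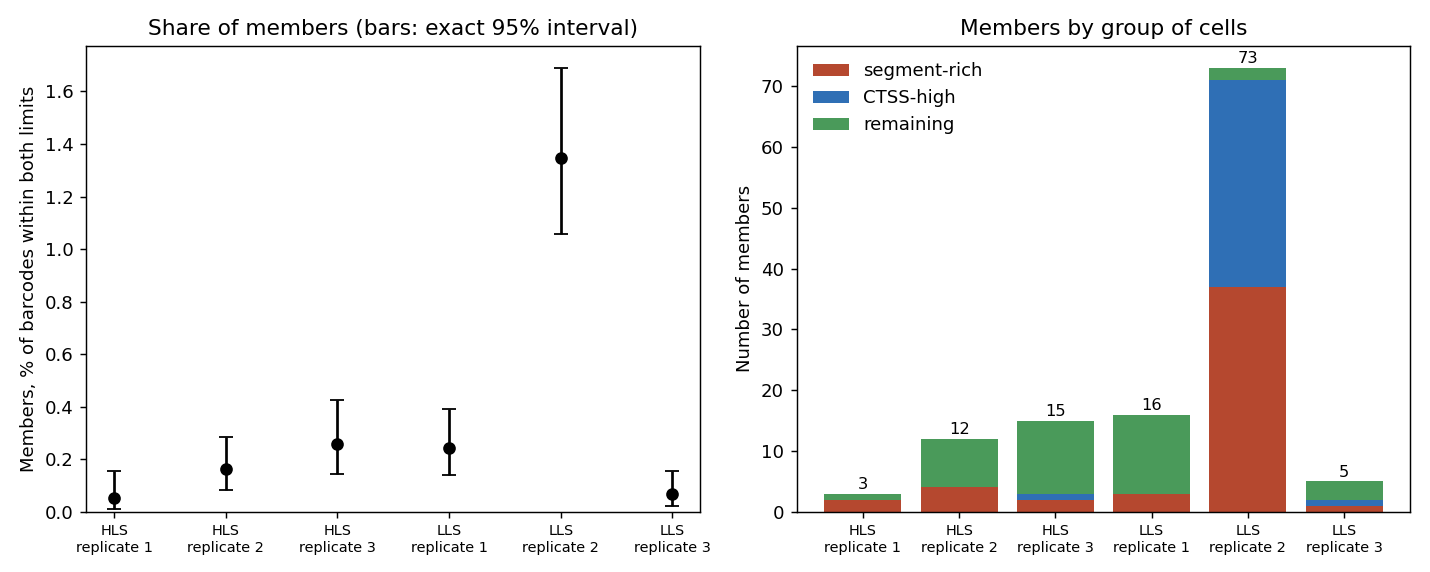
The left panel plots the members of each ewe as a percent of barcodes within both limits, with exact 95% intervals as bars, and the right panel stacks the number of members by the 3 kinds of cell described in the text. LLS replicate 2 held 73 of the 124 members, 37 of them segment-rich and 34 CTSS-high. In HLS replicates 2 and 3 and LLS replicates 1 and 3 the remaining members were the most numerous kind.

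Between HLS and LLS the share of members did not differ beyond the spread between ewes. It was 0.158% ± 0.102 in HLS and 0.551% ± 0.694 in LLS (SD, n = 3 each), a difference of -0.394 percentage points with p = 0.60 in a two-sided exact permutation test, which with 3 against 3 ewes cannot go below 0.10. Without LLS replicate 2 the difference was 0.00344 percentage points (exact permutation p = 0.90), so the direction rested on this ewe. Without CTSS-high members the share of LLS replicate 2 was 0.719% and the difference -0.186 percentage points. Thinning each barcode to 1000 UMI lowers the detection of every rule gene, and 16 members were left. HLS replicate 2 and LLS replicate 1 held 5 each, and LLS replicate 2 held 4. HLS replicate 3 and LLS replicate 3 held 1 each, and HLS replicate 1 held 0. Of these 16, 6 were segment-rich, 1 was CTSS-high and 9 were neither, kinds that are described below. The median member held 8145 UMI in LLS replicate 2 and 3444 in LLS replicate 1. Over all barcodes within both limits, the median was 5334 UMI in LLS replicate 2, the lowest of the ewes, and 9990 in LLS replicate 1. The part of depth in the difference between ewes was not tested.

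Of the genes in the rule, CD79A was detected in 99 members, JCHAIN in 96, MZB1 in 86, VPREB3 in 55, CD79B in 48 and MS4A1 in 35. The other cells set beside the members were defined to have at most 1 of the 6 genes, which fixes part of the contrast. In 16309 endothelial-marked barcodes, whose median depth of 9828 UMI was above the members' 6894, JCHAIN was detected in 2.46%, CD79A in 1.43% and MZB1 in 0.190%. In 1175 T cells (median 2516 UMI) CD79A was detected in 5.96% and MZB1 in 0, which allows a share of up to 0.255%. With every barcode thinned to 1000 UMI, CD79A was detected in 26.6% of the 124 members and 2.38% of T cells, and JCHAIN in 41.9% and 0.170%. At the edge of the rule, 82 members had exactly 3 of the 6 genes, 37 had 4 and 5 had 5, and 118 barcodes that met the other conditions had 2 genes and stayed outside.

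MS4A1 and MZB1 were rarely seen in the same cell. Both were detected in 3 members, MS4A1 alone in 32, MZB1 alone in 83 and neither in 6. MS4A1 was detected in 1 of 3, 7 of 12 and 12 of 15 members of the HLS ewes, in 11 of 16 and 2 of 5 of LLS replicates 1 and 3, and in 2 of 73 members of LLS replicate 2, both of which were called doublets. MZB1 ran the other way and was detected in 71 of the 73 members of LLS replicate 2, in 4 and 2 members of LLS replicates 1 and 3, and in 2, 5 and 2 members of HLS replicates 1 to 3. LLS replicate 2 thus differed from the other ewes in which rule genes its members carried as well as in their number.

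Antibody transcripts took up much of the summed UMI of the members, most of it in a part of the cells. RefSeq marks 157 of the measured genes as V segments and 15 as C regions, and the gene LOC114108841, marked as protein-coding, holds 6 of these V segments within its span, so its reads and theirs cannot be told apart. These 173 genes are called receptor segments here, and closely similar segments can share reads. They held 57.6%, 27.2% and 3.08% of the members' summed UMI in HLS replicates 1 to 3 and 15.5%, 42.8% and 10.1% in LLS replicates 1 to 3. The median over the 124 single members was 0.791%, and most of the segment UMI lay in the 49 members described below as segment-rich. LOC114108841, the most abundant gene of the members, gave 5061, 2401 and 268 UMI per 10000 in HLS replicates 1 to 3 and 1333, 3492 and 831 in LLS replicates 1 to 3, a mean of 2231 ± 1803 (SD, n = 6). LOC101108817, a C region, came next with 279 ± 253 UMI per 10000. Both were low in HLS replicate 3, where 12 of the 15 members were MS4A1-positive.

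Among the next 18 genes by mean level, leaving out KEF53_ and ribosomal protein genes, were heat shock genes and genes that most cells express. HSP90AA1, a cytosolic chaperone, was at 71.4 ± 26.0 UMI per 10000, UBB, a ubiquitin gene, at 43.1 ± 12.8, HSP90AB1 at 39.1 ± 14.6, HSPA6 at 36.4 ± 18.0 and HSPA5, the main chaperone of the endoplasmic reticulum, at 25.2 ± 22.0 (SD, n = 6 ewes). The pseudogene LOC121818276 (113 ± 65.8), the rRNA gene LOC114112489 (72.6 ± 30.5), TPT1, TMSB10, TMSB4X, FAU, JUN and the uncharacterised LOC121818848, LOC114108604 and LOC101108931 were also in this set, as were the C region LOC101108781 and the V segment LOC101110577. LOC101110577 varied most between ewes, from 0 in HLS replicate 1 to 170 UMI per 10000 in LLS replicate 2.

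The members fell into 3 kinds, drawn after their values were seen, with gaps among the members in receptor segments and in CTSS. The genes of these kinds are described without a test. In 49 segment-rich members the receptor segments held at least 5% of the UMI. The lowest of them had 7.23%, and the highest of all other members had 2.56%. Outside the members, the lowest segment-rich barcode of LLS replicate 2 had 5.04%. In 36 CTSS-high members CTSS, a lysosomal protease of antigen presentation, reached 7 to 60 UMI, where every other member had at most 2. IRF8, also used to define this kind, left no gap, with 2 UMI in its lowest cell and 2 in the highest of the remaining members. The remaining 39 members had neither feature and included all 35 members with MS4A1. Segment-rich members numbered 2, 4 and 2 in HLS replicates 1 to 3 and 3, 37 and 1 in LLS replicates 1 to 3. CTSS-high members numbered 0, 0 and 1 in HLS and 0, 34 and 1 in LLS, and the remaining members 1, 8 and 12 in HLS and 13, 2 and 3 in LLS.

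**Figure D2:**
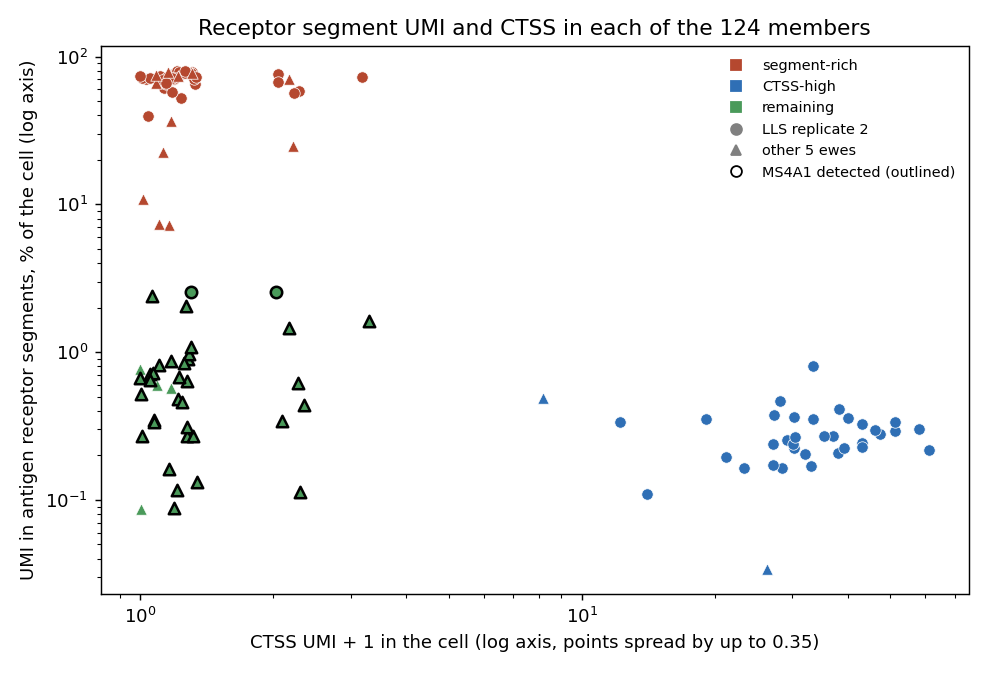
Each point is 1 of the 124 members, placed by its CTSS UMI plus 1 on the horizontal log axis and by the percent of its UMI in receptor segments on the vertical log axis, with LLS replicate 2 as circles, the other 5 ewes as triangles, and an outline where MS4A1 was detected. The segment-rich members lie above 7.23%, the CTSS-high members lie to the right of 7 UMI and below 0.808%, and all outlined points lie with the remaining members at the lower left.

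The segment-rich members, defined by their share of receptor segments, carried further markers of antibody secretion. Receptor segments held a median of 70.9% of their UMI (7.23% to 80.0%), and over 50% in 42 of the 49 cells. MZB1 was detected in all 49, JCHAIN in 43, VPREB3 in 32, CD79A in 27 and CD79B in 19, and MS4A1 in 0, which allows a share of up to 6.12%. They held a median of 11797 UMI (1198 to 21048). These are markers of plasma cells, although SDC1 (CD138), a surface protein of plasma cells, was sparse, at 0.99 UMI per 10000 in LLS replicate 2 and 0.16 in the other 5 ewes together.

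LOC114108841 led 46 of the segment-rich members, with a median of 60.5% of a cell's UMI over all 49. The other 3 were led by the V segment LOC101110577 and had 0 to 3 UMI of LOC114108841. The segment LOC101110577 held 57.0% and 62.8% of the UMI in 2 such cells of LLS replicate 2, and 4.42% in 1 cell of HLS replicate 2, where no segment held more. The C region LOC101108817 passed 1% of the UMI in 46 cells, with a median of 6.45%. LOC101107475, another C region, passed 1% in 2 others, at 1.97% in a cell of HLS replicate 3 and 2.83% in a cell of LLS replicate 1. No cell passed 1% in both, and 1 cell passed it in neither. Since 1 gene symbol covers many rearrangements, a shared leading gene does not place cells in 1 clone.

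To compare other genes despite this load, levels were taken per 10000 UMI outside the receptor segments, with the cells of all 6 ewes summed. Among the secretory genes of segment-rich members JCHAIN was at 55.8, DERL3, of the degradation machinery of the endoplasmic reticulum, at 24.6, MZB1 at 20.4, SEC11C, a subunit of signal peptidase, at 11, TXNDC5, a disulphide isomerase, at 9.15, PRDX4, a peroxidase of the endoplasmic reticulum, at 7.42 and SDF2L1 at 7.31. In the remaining members JCHAIN was at 5.24, DERL3 at 3.05, PRDX4 at 0.691, TXNDC5 at 0.633, MZB1 and SEC11C at 0.173 and SDF2L1 at 0.115. Summed over 57 measured secretory pathway genes, the level was 434 in segment-rich members, 112 in the remaining members and 258 in CTSS-high members, beside 114 in T cells and 179 in macrophages.

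Among the members, the regulators of the plasma cell state were also highest in the segment-rich cells. XBP1 was at 13.6 UMI per 10000 outside the segments in segment-rich members, 3.85 in CTSS-high members and 0.921 in the remaining members, PRDM1 at 3.03, 0.205 and 0.461, and IRF4 at 2.71, 1.64 and 0.863. TNFRSF13B (TACI), a receptor for the survival factors BAFF and APRIL, was at 2.44, 0.0682 and 0.173, and CD27 at 1.62, 0.0682 and 0. XBP1 was also at 2.93 in T cells and 2.98 in macrophages, so it does not mark plasma cells alone.

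Segment-rich members of LLS replicate 2 (37 cells) and of the other 5 ewes (12 cells) were set side by side. JCHAIN was at 55.6 and 56.0 UMI per 10000 outside the segments, MZB1 at 19.1 and 22.7, TXNDC5 at 9.32 and 8.84 and PRDM1 at 3.22 and 2.68. DERL3 was at 20.3 and 32.8, XBP1 at 16.8 and 7.57, and CD74, the invariant chain of MHC class II, at 2.97 and 6.47. The proliferation marker MKI67 was at 0 and 2.21, and SDC1 at 0.99 and 0.16. The median share of UMI in receptor segments was 71.9% and 51.1%. With 1 ewe on one side these values have no replicate check.

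The remaining 39 members had the profile of B cells. MS4A1 was detected in 35 of them, CD79A in 38 and CD79B in 29, JCHAIN in 21, VPREB3 in 11 and MZB1 in 3. Their median depth was 3357 UMI, and receptor segments held a median of 0.616% of it. CD79A was at 6.79, MS4A1 at 4.72 and CD79B at 3.86 UMI per 10000 outside the segments, EBF1, a factor of early B cell development, at 2.30, BANK1, a scaffold of receptor signalling, at 3.22, TNFRSF13C (the BAFF receptor) at 2.48 and PAX5, the factor that holds B cell identity, at 1.5. PAX5 was at 0 in segment-rich and CTSS-high members, in macrophages and in T cells. EBF1 was at 0.108 and 0.0341 in segment-rich and CTSS-high members. Of these 39 cells, 37 came from ewes other than LLS replicate 2.

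The CTSS-high members carried only some markers of the label. CD79A and MZB1 were detected in 34 of 36 and JCHAIN in 32, which is how they met the rule, while CD79B, MS4A1 and PAX5 were detected in 0 of 36, which allows a share of up to 8.33%. Receptor segments held a median of 0.270% of their UMI and at most 0.808%. In LLS replicate 2, LOC114108841 was at 9.05 UMI per 10000 in CTSS-high members. In other cells of this ewe it was at 4.24 in T cells, 1.94 in macrophages, 1.83 in endothelial-marked and 1.97 in stromal barcodes. The V segment LOC101110577 was at 14.2 in its CTSS-high members, against 0.176 and 0.0837 in its endothelial-marked and stromal barcodes. LOC101110577 was detected in all 36 CTSS-high members, at 1 to 27 UMI each, and in 4 of 49 segment-rich members, 3 of which held 364, 3711 and 7644 UMI. Among their leading genes were CTSS at 40.03 UMI per 10000 outside the segments, PLAC8 at 22.1, LY6E, an interferon-induced surface protein, at 17.7, C1R at 19.3, IRF8, a factor of B cells and dendritic cells, at 12, OGFRL1 at 10.3, LAMP3 at 9.89, BCL2L15 at 9.75 and CSF2RB, the common beta chain of cytokine receptors, at 7.64. KCTD12 at 17.2 and RGS1 at 12.4 were also among them, beside 6.39 and 8.28 in macrophages. CD74 was at 78.9, close to the 74.9 of macrophages and above the 29.4 of the remaining members. They are therefore called by these genes here, and no cell type is given to them.

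Markers of other cells were present in the CTSS-high members. Of 11 plasmacytoid dendritic cell genes measured, 10 were detected and PTCRA was at 0, with a summed level of 25.6 UMI per 10000 outside the segments against 6.28 in segment-rich and 8.81 in remaining members. TCF4, a factor that plasmacytoid dendritic cells and B cells share, was the most abundant at 10.4, PLD4 was at 4.43, IRF7, a factor of the interferon response, at 3.51, IL3RA at 1.13 and TLR7, a sensor of RNA, at 1.09. Of 9 dendritic cell genes 5 were detected, summed 13.9, led by LAMP3, with CLEC9A, XCR1, BATF3 and ZBTB46 at 0. Of 12 macrophage genes 4 were detected, summed 6.99 against 116 in macrophages, led by FCER1G at 5.83, with C1QA, C1QB, CD68, CSF1R, MARCO, AIF1, CD14 and LYZ at 0. CTSS, IRF8, PLD4, LAMP3 and the C1Q genes entered the definition of these cells, so their levels follow in part from it. Of 16 T cell genes 8 were detected, summed 6.07, led by CD8B at 2.63 and CD4 at 1.64, the latter in 24 of 36 cells, and CD3D, CD3E, CD6, CD28, BCL11B, LCK, THEMIS and CD8A were at 0. Over all members the plasmacytoid list summed to 6.23, 10.3 and 6.31 in HLS replicates 1 to 3 and 11.5, 20.3 and 8.23 in LLS replicates 1 to 3, and the dendritic list to 0, 3.00 and 2.90 and to 1.77, 10.2 and 2.74. Both lists were highest in LLS replicate 2, the ewe with 34 of the 36 CTSS-high members.

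**Figure D3:**
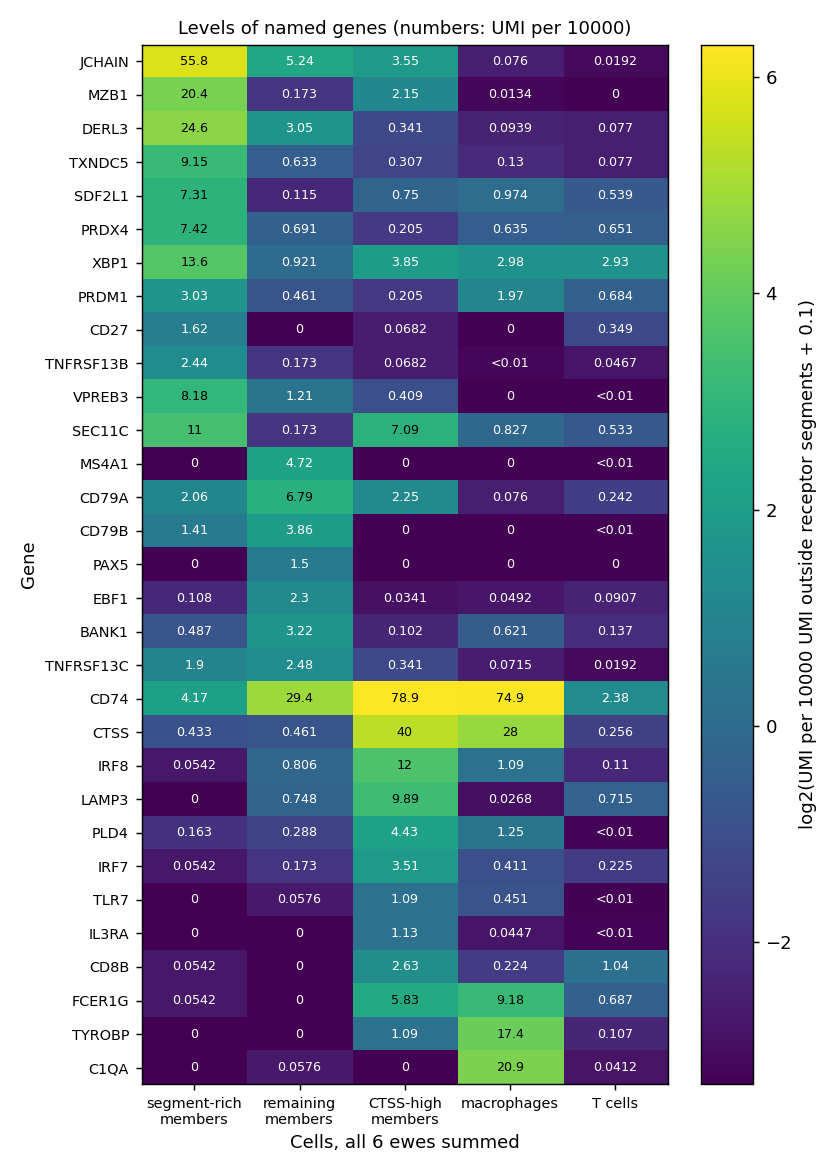
Each tile gives the level of a gene as UMI per 10000 UMI outside the receptor segments, with all 6 ewes summed, in the 3 kinds of member, in macrophages and in T cells, coloured by log2 of the level plus 0.1. JCHAIN, MZB1, DERL3 and XBP1 are highest in segment-rich members (55.8, 20.4, 24.6 and 13.6), MS4A1, CD79B, PAX5 and EBF1 in the remaining members (4.72, 3.86, 1.5 and 2.30), and CTSS, IRF8 and LAMP3 in CTSS-high members (40.03, 12 and 9.89).

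Cells with the same features also lay outside the rule. Of all barcodes within both limits, 74 were segment-rich, 25 of them not members, 175 were CTSS-high, 139 of them not members, and 75 had MS4A1, 40 of them not members. CTSS-high barcodes made up 0.0811% and 0.360% in HLS replicates 2 and 3 and 0.106%, 2.30% and 0.212% in LLS replicates 1 to 3. None of the 5654 barcodes of HLS replicate 1 was CTSS-high, which allows a share of up to 0.0531%. Segment-rich barcodes made up 0.0531%, 0.0676% and 0.0343% in HLS and 0.0908%, 1.03% and 0.0265% in LLS, so LLS replicate 2 stood apart for both kinds. It did not for MS4A1, which was detected in 0.0177%, 0.230% and 0.412% in HLS and in 0.393%, 0.0737% and 0.0397% in LLS, with the groups overlapping. The 91 CTSS-high barcodes of LLS replicate 2 outside the members had CTSS at 40.3, IRF8 at 14.2 and LAMP3 at 9.32 UMI per 10000 outside the segments, beside MZB1 at 1.23, CD79A at 1.07 and JCHAIN at 0.99. The 48 outside the members in the other ewes had CTSS at 21.9, with AIF1 at 10.8 and TYROBP at 7.05, both macrophage genes.

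**Figure D4:**
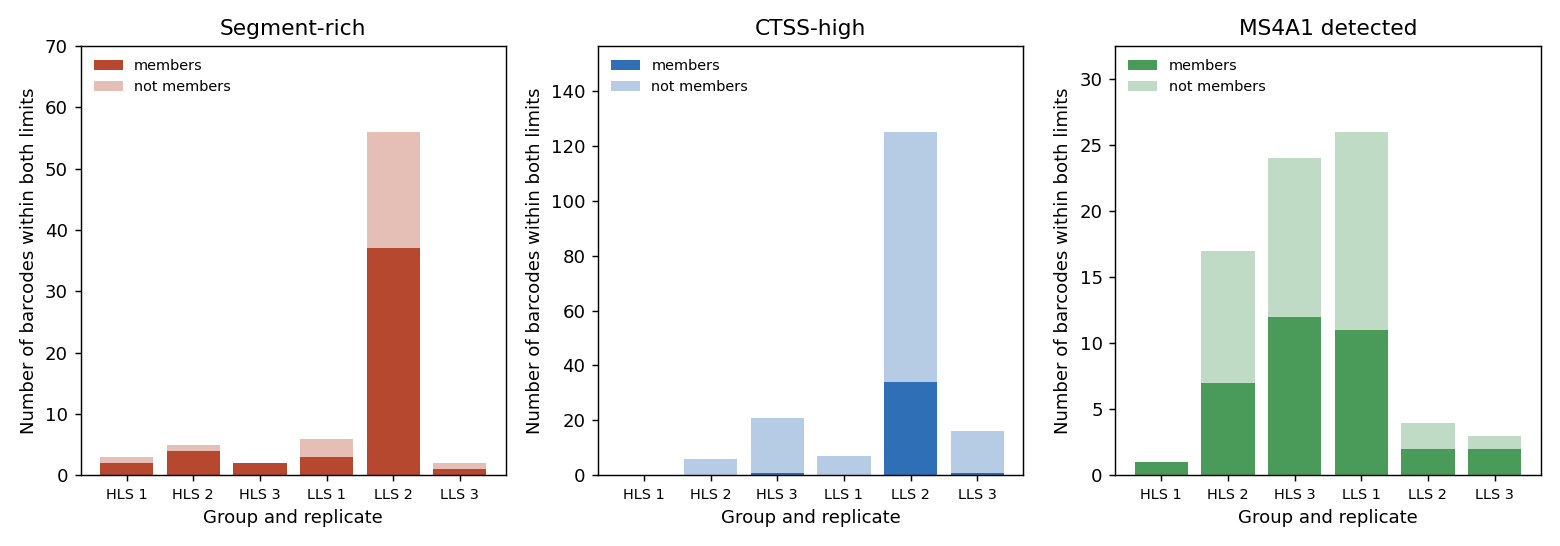
The bars give the number of barcodes within both limits in each ewe that were segment-rich, CTSS-high or had MS4A1, with members in the full colour and others in the pale colour. LLS replicate 2 held 56 of 74 segment-rich and 125 of 175 CTSS-high barcodes but 4 of 75 with MS4A1.

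Members were then compared with T cells of the same ewes, using UMI summed per ewe and leaving the rule genes out of the account. The 4 ewes with at least 10 members took part, HLS replicates 2 and 3 and LLS replicates 1 and 2, with the ewe as a block. T cells were barcodes with at least 2 of CD3D, CD3E, CD3G and CD2, at most 1 of the 6 B genes and at most 2 UMI over PECAM1 and KDR. Of 4774 genes tested, 374 (7.83%) passed an adjusted p of 0.05 in edgeR's quasi-likelihood test with Benjamini-Hochberg adjustment, 141 (2.95%) higher and 233 (4.88%) lower in members. Without TMM scaling factors 85 were higher and 523 lower, with the median log2 change of all genes at -0.50 in place of -0.04, so directions below are relative to that median. Without LLS replicate 2, 111 of 3423 genes were higher and 179 lower, and without CTSS-high members 93 of 4659 were higher and 221 lower.

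Receptor segments were among the largest rises. LOC114108841 was higher by 12.23 ± 0.52 on the log2 scale (adjusted p = 6.7e-09, edgeR), at 240058, 26758, 133340 and 349239 UMI per 1000000 UMI (CPM) in members of HLS replicates 2 and 3 and LLS replicates 1 and 2, and at 23.8, 1.68, 25.7 and 424 CPM in their T cells. The V segment LOC101110577 rose by 11.50 ± 0.54 and the C regions LOC101108817, LOC101108781 and LOC101107475 by 10.75 ± 0.39, 9.82 ± 0.40 and 7.46 ± 1.14. For LOC101107475, 1 cell of LLS replicate 1 held 201 UMI and 1 cell of HLS replicate 3 held 74, most of the UMI of each ewe. In HLS replicate 2 LOC101107475 was at 27.3 CPM in members and 19.0 CPM in T cells. Levels of LOC114108841 and LOC101108817 in T cells were highest in LLS replicate 2, the ewe with the most segment-rich members. LOC105602976 was at 369, 60.2, 89.5 and 225 CPM in members and at 0 UMI in T cells. It was at least 192-fold higher with 3 UMI over all T cells as the floor, and entered the test through the members alone.

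Genes that carry the signal of the B cell receptor were among the rises. Of 17 measured genes of the pathway below the receptor, 13 were tested, 7 rose, none fell and 6 did not pass, where 2.95% of all genes tested were higher. BLNK, the adaptor that links the receptor to its effectors, rose by 6.03 ± 0.55 and stood at 68.3, 60.2, 179 and 173 CPM in members against 0, 1.68, 0 and 5.90 CPM in T cells. The 2 classes did not overlap in any of these ewes. In LLS replicate 2, BLNK was detected in 29 of the 34 CTSS-high members, at 3.87 UMI per 10000 in these cells. RASGRP3 rose by 4.28 ± 0.49, LYN, a kinase at the receptor, by 3.21 ± 0.39, and SYK, PLCG2, BANK1 and PIK3AP1 were the other 4. Without LLS replicate 2, 7 of 10 tested genes rose, and without CTSS-high members 5 of 10. Of 12 measured genes of the receptor and its coreceptors only CD81 and CD37 were tested, and neither passed, where 7.83% of all genes tested did. TNFRSF13C rose by 5.91 ± 0.53, the only riser of 6 tested survival receptors and factors, where IL4R and BCL2A1 fell.

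Of 57 measured secretory pathway genes 54 were tested, 25 rose (2.95% of all genes tested were higher), none fell, and the median log2 change was 1.04 against -0.04 for all genes. DERL3 rose most, by 6.70 ± 0.44 (adjusted p = 9.81e-07, edgeR), at 1203, 171, 1313 and 389 CPM in members against 11.9, 5.87, 4.28 and 5.90 CPM in T cells, with SEC11C, SDF2L1, SSR3 and FKBP11 among the others. Without TMM factors 14 rose, with a median of 0.63 against -0.50 for all genes. Without LLS replicate 2, 20 of 51 rose and without CTSS-high members 19 of 53. Of the 3 plasma cell factors none passed. XBP1 differed by -0.04 ± 0.43 (adjusted p = 0.981, edgeR), at 260, 70.2, 164 and 453 CPM in members and 259, 268, 323 and 334 CPM in T cells, with the classes overlapping.

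Among factors of the B lineage 4 of 9 tested rose and 1 fell, beside 2.95% and 4.88% of all genes tested. MEF2C rose by 3.83 ± 0.40, IRF8 by 3.85 ± 0.67, and POU2F2 (Oct-2) and TCF3 (E2A) also rose, while ETS1, which T cells express strongly, fell. IRF8 was not tested without CTSS-high members or without LLS replicate 2, where too few UMI were left, and in each of these settings 2 of 8 tested factors of the list rose and 1 fell. Without TMM factors 3 rose and 3 fell. Of 6 tested antigen presentation genes 3 rose (CD74, CTSS and CD86) and B2M, the light chain of MHC class I, fell by 0.82 ± 0.23 (adjusted p = 0.0417, edgeR). Without CTSS-high members 1 of 5 tested genes of this list rose and none fell, so B2M was not called there. Without LLS replicate 2, 2 of 4 rose and 1 fell, and without TMM factors 3 of 6 rose and 3 fell. CD74 rose by 3.76 ± 0.29 (adjusted p = 5.24e-06, edgeR), and by 2.99 without CTSS-high members. CTSS rose by 3.88 ± 0.74 (adjusted p = 0.00426, edgeR) with them and differed by 0.76 without them (adjusted p = 0.509, edgeR). TCF4 rose by 3.29 ± 0.29, and by 3.48 without LLS replicate 2 and 3.04 without CTSS-high members. PLD4, at 6.90 ± 0.61, and BCL2L15, at 6.86 ± 0.60, were the other large rises, and neither was tested without the CTSS-high members, where too few UMI were left.

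**Figure D5:**
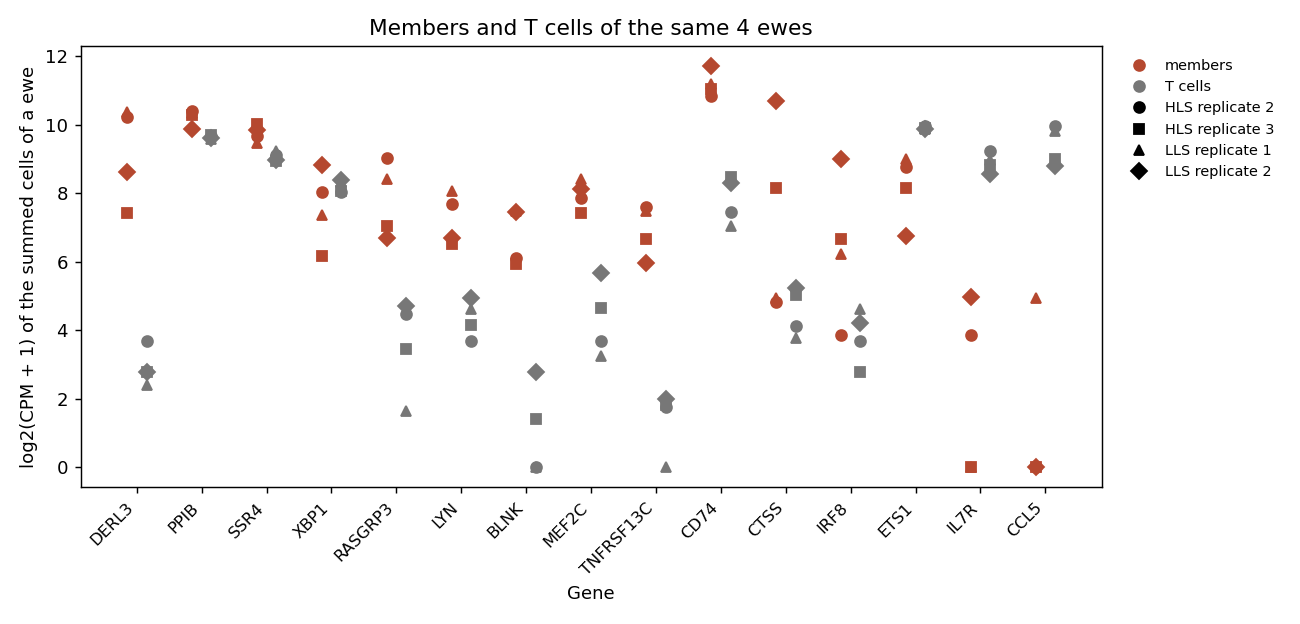
Each point is the level of a gene in 1 of the 4 ewes with at least 10 members, as log2 of CPM plus 1, for the summed members (red) and the summed T cells (grey), with a symbol per ewe. DERL3, BLNK, CD74 and TNFRSF13C are higher in members of all 4 ewes, XBP1 overlaps between the classes, and CTSS and IRF8 spread widely between ewes in members.

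The falls included T cell and cytotoxic cell genes. Of 11 tested T cell list genes 9 fell and none rose, and all 5 tested cytotoxic genes fell. Over all genes tested 4.88% were lower. T cells were chosen by CD3D, CD3E, CD3G and CD2, and members by few UMI of CD3E and CD3G. These directions therefore follow in part from the rules. The genes at 0 UMI in members named next entered the test through T cells alone and could only fall. CTSW, a protease of cytotoxic cells, was at 751, 427, 505 and 437 CPM in T cells and at 0 UMI in members, at least 152-fold lower with 3 UMI over the members as the floor. XCL1, a chemokine, was at least 103-fold lower, GATA3 at least 57.9-fold, BCL11B at least 45.2-fold and SH2D1A at least 42.9-fold, each at 0 UMI in the members of the 4 ewes. LOC114109030 (214-fold), LOC101122689 (127-fold), LOC101116896 (59.0-fold), the C region LOC101120322 (55.7-fold) and LOC105613002 (53.4-fold) were lower by at least these amounts. The segments used by T cells also divided the classes. The 47 segments that share a chromosome with LOC101108647 were at 17.5 UMI per 10000 in T cells and 0.259 in members, and the 89 that share one with LOC101110848 at 4.28 and 0.0897.

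Members differed from macrophages of the same 4 ewes at 766 of 3919 tested genes (19.5%), 261 higher (6.66%) and 505 lower (12.9%) in edgeR's test. Without TMM factors, where the median of all genes went from -0.05 to -0.67, 66 were higher and 1061 lower. Without CTSS-high members 273 of 3833 genes were higher and 509 lower. Receptor segments were again among the largest rises, LOC114108841 by 12.88 ± 0.50, LOC101108817 by 11.90 ± 0.57, LOC101108781 by 10.03 ± 0.35 and LOC101110577 by 8.37 ± 1.08, and LOC105602976 was at least 131-fold higher. Of 13 tested receptor signalling genes 4 rose and none fell, BLNK by 1.49 ± 0.39 among them, but without TMM factors none rose and 2 fell. In HLS replicate 2 BLNK was lower in members, at 68.3 against 79.9 CPM. Of 3 tested genes of the receptor and its coreceptors CD81 and CD180 fell and none rose, and without CTSS-high members 1 of 3 fell. Of 52 secretory genes 18 rose and 1 fell, and 7 rose and 5 fell without TMM factors. TCF4 rose by 2.11 ± 0.23, ETS1 by 3.92 ± 0.43 and TNFRSF13C by 4.35 ± 0.64. CD74 fell by 1.09 ± 0.17 and CTSS by 3.02 on the log2 scale. The leading falls were at 0 UMI in members: the lncRNA LOC114115224 was at least 338-fold lower, LOC101112822 at least 335-fold, C5AR1, a complement receptor, at least 162-fold, MSR1, a scavenger receptor, at least 117-fold and LOC105612575 at least 95.2-fold. These genes entered the test through macrophages alone and could only fall, and LOC105602976, at 0 UMI in macrophages, could only rise. All 4 tested macrophage list genes fell. Macrophages were chosen by other genes of this list, so these directions follow in part from the rule.

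Lists that mark other states of B cells were also examined. Of the germinal centre genes, RGS13, MYBL1 and GCSAM were detected in 0 of 124 members, which allows a share of cells with a UMI of up to 2.42%, and MYBL1 was lower than in T cells (adjusted p = 0.00391, edgeR), while BCL6 and LMO2 were tested and not called. Of 22 cell cycle genes 10 were tested against T cells and none passed, where 7.83% of all genes tested did, with a summed level of 9.01 UMI per 10000 outside the segments in members and 12.3 in T cells, although without TMM factors 4 were lower in members, as were 523 of all 4774 genes. Among 11 survival and niche signals CXCL13, IL7, CD40LG, IL21, CCL19 and CCL28 were at 0 in members. Stromal genes summed to 3.46, 14.8 and 17.5 UMI per 10000 in members of HLS replicates 1 to 3 and to 10.8, 5.45 and 37.6 in LLS, led by COL1A1, and endothelial genes to between 1.69 and 5.48. The part of such RNA in the results was not tested. Genes of red blood cells were at 0.

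Plasma-type members, with at least 2 UMI of JCHAIN and no MS4A1, were 41.7% of members in HLS replicate 2, 20% in HLS replicate 3, 31.2% in LLS replicate 1 and 57.5% in LLS replicate 2. The difference between HLS (30.8% ± 15.3) and LLS (44.4% ± 18.6; SD, n = 2 each) was -13.6 percentage points, which is a description and not a test, since JCHAIN and MS4A1 are genes of the rule. This class held 59 members, of which 17 were CTSS-high, and without CTSS-high members the difference was -21.0 points. Without LLS replicate 2 it was -0.417 points. No ewe had at least 10 plasma-type and 10 B-type members, so their genes were not compared in this way.

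Between HLS and LLS, 0 of 945 genes tested in the members of the 4 ewes (0.0%) passed in edgeR's quasi-likelihood test (smallest adjusted p = 0.755), 57 had an unadjusted p under 0.05, and DESeq2 called 1. The groups did not overlap at 279 genes (29.5%). The 3 genes with the smallest p were H1-4 and H1-2, linker histones, and DNAJB1, a co-chaperone. H1-4 was at 13.7 and 40.1 CPM in HLS replicates 2 and 3 and at 328 and 160 in LLS replicates 1 and 2. H1-2 was at 54.7 and 100 against 343 and 351 CPM, and DNAJB1 at 1230 and 1013 against 3297 and 2717 CPM. The groups did not overlap for these in the 4 ewes. In the ewes left out, HLS replicate 1 had 2 UMI of H1-4 and 0 of H1-2 among 34058 UMI of its members, and LLS replicate 3 had 2 and 3 among 40587, so that with all 6 ewes the groups overlapped for both. For DNAJB1, HLS replicate 1 had 41 UMI and LLS replicate 3 had 70, and with all 6 ewes the groups did not overlap. The share of all genes without overlap in 6 ewes was not counted. DNAJB1 was picked for its small p and did not pass (adjusted p = 0.755, edgeR). In HLS replicate 3, 83 of the 101 UMI of DNAJB1 lay in 1 CTSS-high cell that was called a doublet. Without CTSS-high members 0 of 656 genes passed and 30 had an unadjusted p under 0.05 in edgeR's test. All 38 tested secretory genes, 6 receptor signalling genes and 3 plasma cell factors were without a call. With so few ewes per group, a missing call does not show equal levels.

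Whether a gene's difference between HLS and LLS was itself different in members and in T cells was asked by the interaction. Of 6260 genes 14 (0.224%) passed in edgeR's test, 7 higher (0.112%) and 7 lower (0.112%), 361 had an unadjusted p under 0.05 and DESeq2 called 0. The groups did not overlap at 31.3% of genes. H1-4 was lower in HLS members relative to T cells by 4.13 ± 0.80 on the log2 scale (adjusted p = 0.00510, edgeR), at 119 and 113 CPM in HLS T cells and 109 and 47.2 CPM in LLS T cells beside the member levels above, which overlapped once the 2 ewes left out were included. For some of the genes called, most UMI of an ewe lay in 1 cell or in CTSS-high members. For GSTA1, a detoxifying enzyme, 448 of 513 UMI in HLS replicate 3 came from the 1 CTSS-high cell called a doublet, and for CNRIP1 all 13 UMI in HLS replicate 2 came from 1 cell. For IRF7, 102 of 103 UMI in LLS replicate 2 lay in CTSS-high members. Without CTSS-high members 18 of 6185 genes passed, 2 higher and 16 lower.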

How the data were processed

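Ovary cells of 6 Hu sheep ewes were measured with droplet 3′ single-cell RNA sequencing. Per the labels and the study's methods, the authors processed the reads with Cell Ranger 5.0.0, which aligns with STAR, and deposited raw UMI counts per gene and barcode. The methods also describe reads being down-sampled where needed to normalize data aggregated over samples. Whether that step affected the deposited counts was not tested. The annotation behind the deposited gene names was read against RefSeq (ARS-UI_Ramb_v3.0), where 25805 of 30574 symbols matched, and it was used for names, biotypes and which genes share a chromosome or a span. The 37 genes named KEF53_ carry the locus tags of the sheep mitochondrial genome. No sequence or coordinate is printed.

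The members, the gene lists and the tests were chosen with earlier results of these data known. The 3 kinds of member were drawn after their values were seen: segment-rich cells had at least 5% of UMI in receptor segments, and CTSS-high cells had at least 5 UMI of CTSS, 2 of IRF8, 1 of PLD4 and LAMP3 together and at most 2 of the C1Q genes. Macrophages had at least 3 of the 5 measured genes C1QA, C1QB, C1QC, CD68 and CSF1R (CD163 was not used here), at most 1 of the 6 B genes and at most 2 UMI over the excluded genes. Endothelial-marked barcodes had at least 3 genes of the endothelial list and at most 1 of the 6 B genes. Doublets were sought by simulation (2 simulated doublets per cell, 30 neighbours), which called 4 members, and these were kept in the main results.

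Counts were summed per ewe and class, for ewes with at least 10 cells of each class. The summed members held 34058, 73174 and 99673 UMI in HLS replicates 1 to 3 and 67039, 688663 and 40587 in LLS replicates 1 to 3, so LLS replicate 2 gives the most precise values and HLS replicate 1 the least. Genes were tested with edgeR 4.0.16 (filterByExpr, TMM, quasi-likelihood test, ewe as a block between classes) in R 4.3.3, adjusted by Benjamini-Hochberg over all genes tested, with DESeq2 1.42.0 as an alternative. Shares were compared with two-sided exact permutation tests over ewes. Errors are SD over ewes, or SE for log2 changes. The labels name no batch, and p-values cover the spread between these ewes.

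Named genes were the 10 largest rises and 10 largest falls against T cells and the 5 of each against macrophages, past an adjusted p of 0.05, with the same sign in every ewe and a mean of at least 50 CPM in the higher class, the 3 with the smallest p between HLS and LLS, up to 5 in each direction in the interaction, the 20 most abundant genes, and examples of each list. Genes named in the 3 kinds of member were chosen after their values were seen. A few genes of these sets are not reported here. The tests were first run on simulated counts.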

Additional observations from a re-analysis of the deposited data

Results flagged for a closer look

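LLS replicate 2 lay far from the other 5 ewes in 5 measures by the gap in Dixon's test. For a single measure chance sets apart about 1 in 20 groups, a rate that does not apply here, since the measures count overlapping cells and the CTSS-high and segment-rich kinds were drawn after the values were seen. Its members were 1.35% of barcodes and 19.2% of members, T cells and macrophages, its CTSS-high barcodes 2.30% and its segment-rich barcodes 1.03%, and its barcodes outside the members held 35.7 UMI of receptor segments per 10000, where the next highest ewe held 1.79. Among these barcodes were 19 segment-rich cells, with a median of 9464 UMI and 70.6% of it in segments, and LOC114108841 was at 1.83 and 1.97 per 10000 in the endothelial-marked and stromal barcodes of this ewe. The share of barcodes with MS4A1 was not set apart in this way.

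Segment-rich cells outside the rule numbered 25, of which 19 came from LLS replicate 2, and CTSS-high cells outside it 139, of which 91 came from that ewe. No comparison of genes used them.

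The difference between HLS and LLS differed between members and T cells at 14 genes in edgeR's interaction test. On the log2 scale the named ones were CNRIP1 (8.61), ALDH1A1 (4.45), IGFBP2 (4.14), GSTA1 (4.07), SERPINH1 (3.23), LOC101123417 (-9.33), IRF7 (-9.28), H1-4 (-4.13), LOC114109701 (-4.01) and RGS2 (-3.08). For ALDH1A1, GSTA1 and SERPINH1, 25 of 29, 448 of 513 and 48 of 54 UMI in HLS replicate 3 lay in CTSS-high members, of which this ewe had 1. For IGFBP2 34 of 66 UMI there lay in 1 cell, for LOC101123417 all 12 UMI of LLS replicate 1, and for LOC114109701 75 of the 121 UMI of LLS replicate 2. For RGS2, 245 of 273 UMI in LLS replicate 2 lay in CTSS-high members. The 2 ewes left out of this test went against some of these differences. LLS replicate 3, with 40587 UMI in its 5 members, had 197 UMI of GSTA1, 33 of SERPINH1 and 9 of CNRIP1, the latter 2 a higher share than in either HLS ewe tested. HLS replicate 1, with 34058 UMI in its 3 members, had 17 UMI of RGS2, a higher share than in either LLS ewe tested. For H1-4 they had 2 UMI each.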

How the results depend on the processing

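The share of members kept its direction in every setting except without LLS replicate 2 (0.00344 percentage points), and leaving out each ewe gave -0.636 to 0.00344. It was -0.0260 points after thinning and -0.186 without CTSS-high members. With the replicate number as a replicate block the difference in share was -0.394 points with p = 0.75 in an exact permutation test, whose smallest value is 0.25. The labels do not say that equal numbers share a flock or day, and the 4 ewes of the gene tests share only number 2 between the groups, so no paired fit of genes was possible. The difference in the share of plasma-type members was -26.7 to -0.417 points when each ewe was left out, -3.99 after thinning and -27.1 with MZB1 in place of JCHAIN.

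Between HLS and LLS the number of genes called was 1 with DESeq2, 7 without TMM factors, 32 with no filter on low counts and 0 to 98 when each ewe was left out (98 without LLS replicate 1, where LLS replicate 2 stood alone and was taken to vary like the others). Against T cells it was 608 without TMM factors, 719 with no filter, 102 after thinning, 230 to 301 when each ewe was left out, and 234 without both LLS replicate 2 and CTSS-high members. Against macrophages it was 1262 with no filter, 216 after thinning and 540 to 653 when each ewe was left out. For the interaction it was 0 with DESeq2 or at least 5 cells, 1 after thinning, 25 without called doublets and 2 to 95 when each ewe was left out. The cause of these shifts was not tested. Of single genes, 52 of 648 values against T cells, 42 of 442 against macrophages and 68 of 124 of the interaction lost their call. XBP1 against T cells went from -0.04 to 0.10 after thinning, 0.20 with at least 5 cells, 0.37 with no ewe block, 0.16 without CTSS-high members, 0.11 without LLS replicate 1 and 0.42 without HLS replicate 3, and to -0.75 without both LLS replicate 2 and CTSS-high members.

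The settings with CTSS-high members or receptor segments left out were added after the data were seen. At least 4 rule genes and at least 20 cells left too few ewes for the gene tests, and plasma-type against B-type members had values at 5 cells alone, with 0 of 282 genes called by edgeR, 70 at an unadjusted p under 0.05 and a smallest adjusted p of 0.104. With 3 and 5 members, HLS replicate 1 and LLS replicate 3 took no part in the main gene tests.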

Other observations

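MS4A1-positive barcodes and segment-rich barcodes were distributed differently over the ewes: LLS replicate 2 held 4 of the 75 barcodes with MS4A1 and 56 of the 74 segment-rich ones, while HLS replicate 3 held 24 and 2 and LLS replicate 1 held 26 and 6. Segment-rich barcodes outside the rule also carried secretory genes. In the 19 of LLS replicate 2 JCHAIN was at 31.6, XBP1 at 12.7, DERL3 at 13.3 and MZB1 at 9.36 UMI per 10000 outside the receptor segments, and CD79A was at 0. In the 6 of the other ewes JCHAIN was at 30.1, MZB1 at 11.1, XBP1 at 5.48, DERL3 at 5.34 and MKI67, a marker of dividing cells, at 6.04. JCHAIN and MZB1 are genes of the rule that these cells did not meet, so their levels here are no comparison with the members.

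The CTSS-high members of LLS replicate 2 had TLR7 in 17 of 34 cells, TLR9 in 13, IL3RA in 14, SPIB in 14, FLT3 in 9 and CCR7 in 12, and POU2AF1, a B cell coactivator, and TNFRSF17 (BCMA), a plasma cell receptor, in 0.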
